A study of Mus musculus with 10 samples.

Results

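The genes described here are 33 members of the DNA repair machinery, taken as a fixed list of gene symbols and grouped by the pathway each is best known for. A gene was measured by the array probes annotated to its symbol and to no other, and its value is the mean of those probes. This gave values for 32 of the 33 genes, from 54 probes with a value on all 10 arrays, among 14365 genes measured in the same way. No probe carried the symbol of Atr, which is not analysed here. The groups are 11 genes of base excision repair, 2 replicative polymerases, 1 mismatch repair gene, 5 genes of end joining, 6 of homologous recombination and break-end processing, 4 measured genes of damage signalling and 3 of nucleotide excision repair.

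The study compared mouse wild-type (WT) samples with Sirt6-/- (KO) samples, before and during treatment with the inflammatory cytokine TNF-alpha. There were 2 arrays per genotype at 0 h, lettered a and b, and 1 per genotype at 1.5, 6 and 24 h, so 5 WT and 5 KO arrays formed 8 groups. On each array the sample, labelled with Cy5, was set against a universal mouse reference RNA, labelled with Cy3. The sources used here give no cell type, sex, age or TNF-alpha dose, and they do not say how the Sirt6 allele was made or whether a and b were separate cultures. All errors and p-values thus describe how far these particular samples scatter, a scatter that may be technical, and the number of arrays limits the precision. A level below is the log2 ratio of sample to reference minus the array's median over genes, and a difference of levels is KO minus WT unless another contrast is named. Levels of different genes cannot be ranked against each other, because each is relative to its own amount in the reference.

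DNA repair comprises pathways that each deal with a kind of lesion. Base excision repair begins with a glycosylase that removes a damaged base, continues with an endonuclease that cuts the strand, and ends with a polymerase and a ligase that fill and seal the gap, while Parp1 and Xrcc1 serve strand breaks that arise on the way. Mismatch repair corrects replication errors, nucleotide excision repair removes bulky lesions, and broken chromosomes are rejoined either by end joining or, using the sister copy, by homologous recombination. Several of these proteins also work in DNA replication and are known to be more abundant in dividing cells. Sirt6 is a chromatin-bound deacetylase and mono-ADP-ribosyltransferase, and mouse cells without it are known for genome instability and sensitivity to base damage.

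The Sirt6 level checks the genotype labels. The WT arrays lay between -0.16 and 0.07, and the KO arrays at 0, 1.5 and 6 h lay between -1.16 and -0.76. On the array labelled KO 24 h the Sirt6 level was -0.05, inside the WT range, so some results that use that array are also given without it. The others are given only with it, among them most single-gene averages, the counts over all 4 times and the other gene lists. TNF-alpha treatment was visible in the chemokine gene Ccl2, which rose in the mean of the genotypes by 2.84, 2.90 and 3.12 on the log2 scale at 1.5, 6 and 24 h (limma, adjusted p = 0.0107, 0.00901 and 0.00491). KO 0 h array b had the widest values (SD 0.983, against 0.551 to 0.833 on the other arrays) and the most missing spots, 1962. The 0 h arrays of a genotype differed by a median of 0.17 over the repair genes in WT and 0.25 in KO, and by 0.17 and 0.32 over all genes. Since the labels number the images of the WT arrays ahead of those of the KO arrays, effects of array order and of genotype cannot be told apart. Since the labels name no cell type, marker levels are given as they stand: medians of 0.97 to 1.48 across arrays for 7 of 7 fibroblast genes, -2.11 to -1.55 for 4 of 5 epithelial genes and -1.39 to -0.14 for 5 of 9 macrophage genes.

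The first comparison asked whether repair genes differed between KO and WT over the whole time course. They were mostly a little lower in KO. In the genotype average, which counts 0 h more than each later time because it has more arrays, 24 of the 32 genes were lower in KO, and their median difference was -0.11. Over all 14365 genes, 54.4% were lower and the median was -0.03. No repair gene passed an adjusted p under 0.05 in limma, and no gene of the whole table did (0%). At an unadjusted p under 0.05 there were 6 repair genes, all lower in KO, namely Lig1, Ercc1, Pole, Parp1, Mutyh and Xrcc4. That is 6 of 32 genes, or 18.8%, where 9.68% of all genes lay under the same p in either direction and 5.45% did so as lower in KO. Without the array labelled KO 24 h the median was -0.13, and 5 repair genes and 1475 of all 14365 genes lay under that p. Without WT 0 h array a or b it was 1 repair gene, with 786 and 827 of all genes. After quantile normalization it was 4 of the 32 repair genes and 1692 of all genes, shares close to each other. The 6 genes stayed lower in KO there, but Lig1 was at -0.31, Pole at -0.16, Parp1 at -0.23, Mutyh at -0.26 and Xrcc4 at -0.34.

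**Figure D1:**
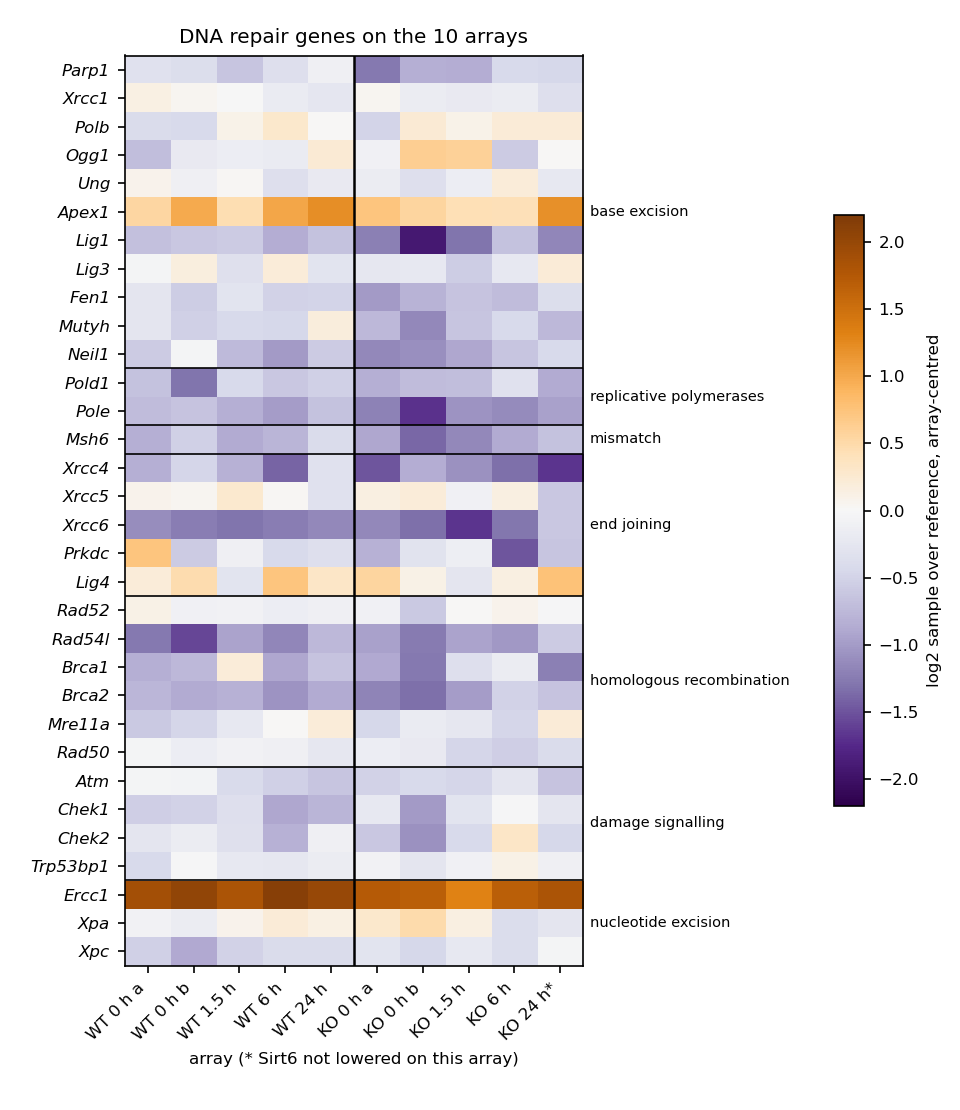
Levels of the 32 measured DNA repair genes (rows, by class) on the 10 arrays (columns), as log2 of sample over reference, centred per array; orange is above and purple below the array's median gene. The asterisk marks the array labelled KO 24 h, on which Sirt6 was not lowered; Lig1, Pole, Parp1 and Msh6 are darker purple on the KO arrays at 0 h than on the WT arrays at 0 h.

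Base excision repair held 3 of the 6 genes, and 9 of its 11 members had a lower genotype average in KO, with a class median of -0.18. Lig1, the DNA ligase that joins Okazaki fragments and seals long-patch base excision repair, showed the widest gap. Its levels on the WT arrays were -0.68 and -0.61 at 0 h and -0.57, -0.85 and -0.67 at 1.5, 6 and 24 h. On the KO arrays they were -1.22 and -1.92 at 0 h, then -1.30, -0.66 and -1.16 in the same order. The KO arrays lay below every WT array except at 6 h, where the order was turned and the KO level fell inside the WT range. The genotype average was -0.58 (SE 0.21, n = 5 arrays per genotype), or 1.49-fold lower in KO, and did not pass (limma, adjusted p = 0.478). The 3 Lig1 probes did not share 1 value: their genotype averages were -1.33 (SE 0.40), -0.49 (SE 0.17) and 0.09 (SE 0.34). The first probe was at -3.48 on KO 0 h array b alone and at -1.17 on array a. The turned order at 6 h came from the third probe, at 0.42 in KO against -0.95 in WT. The first and second were lower in KO there, at -1.34 against -0.75 and -1.07 against -0.88.

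Promoter windows, from 250 bases before to 50 after a RefSeq transcription start (GRCm38.p6), were searched on both strands for the letters bound by E2F, the family of factors that switches on replication genes at the start of S phase. The search used TTTCCCGC, TTTCGCGC, TTTGCCGC and TTTGGCGC. Windows were found for 27 of the 32 measured genes, some with several, and 6 of the 27 genes (22.2%) had a match in at least 1 window, namely Lig1, Msh6, Pold1, Xrcc6, Brca2 and Chek2, against 2.6% of the 27025 genes with a window. In the proliferation list described below, 30.4% of 23 genes did. The CCAAT box occurred in 48.1% of the repair genes and 41.1% of all genes, the letters TTTGAA of the CHR element of late cell cycle genes in 3.7% and 20.2%, and the GC box GGGCGG in 66.7% and 38.2%. The NF-kB consensus, searched because TNF-alpha activates that factor, matched the windows of 0 of the 27 genes and of 9.55% of all genes. No E2F match in these genes overlapped a match to another of these motifs, and a match describes letters and not a bound site. Of the 6 genes with an E2F match, windows are printed for the 4 whose levels on single arrays are given here, with the E2F letters in capitals. The Lig1 window is 1 of 3 for that gene, at chr7:13278576-13278875 on the plus strand, and its match begins 27 bases after the start.
Lig1: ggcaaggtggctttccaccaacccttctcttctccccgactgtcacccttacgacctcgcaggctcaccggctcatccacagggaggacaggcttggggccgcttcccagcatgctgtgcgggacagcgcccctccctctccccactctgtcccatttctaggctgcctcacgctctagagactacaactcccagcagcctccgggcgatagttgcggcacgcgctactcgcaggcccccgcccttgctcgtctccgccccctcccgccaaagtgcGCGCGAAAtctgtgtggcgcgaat

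Parp1, the enzyme that senses strand breaks and builds poly-ADP-ribose, was lower in KO at each of the 4 times. The WT levels were -0.32 and -0.37 at 0 h and -0.63, -0.35 and -0.12 at 1.5, 6 and 24 h. The KO levels were -1.26 and -0.83, then -0.85, -0.43 and -0.46. All KO arrays lay below the WT arrays of the same time, although the ranges overlap across times. The genotype average was -0.41 (SE 0.16), 1.33-fold lower, with limma's adjusted p at 0.490, and its 2 probes gave -0.34 and -0.47.

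Mutyh, the glycosylase that removes adenine opposite oxidised guanine, had a genotype average of -0.44 (SE 0.17, limma, adjusted p = 0.496). Its WT levels were -0.26, -0.52, -0.44, -0.46 and 0.18, from 0 h arrays a and b to 24 h, and its KO levels -0.75, -1.14, -0.62, -0.43 and -0.75. The KO arrays were lower at 0, 1.5 and 24 h, and the largest gap, -0.92, was at 24 h. The 3 Mutyh probes had genotype averages of -0.18, -0.81 and -0.31. The second stood at 0.92 on WT 24 h and between -0.82 and -0.57 on the other WT arrays. Without the array labelled KO 24 h the average was -0.32 (limma, adjusted p = 0.557) and no longer under an unadjusted p of 0.05. Leaving out WT 24 h instead gave the same average. The Mutyh average was -0.29 with a local trend along the order of spots removed, and -0.19 without WT 24 h and KO 0 h array b. Fen1, the nuclease that trims flaps in replication and long-patch repair, was lower in KO at 0, 1.5 and 6 h, by -0.49, -0.35 and -0.21, and 0.11 higher at 24 h. The remaining 7 genes of the class had genotype averages between -0.25 and 0.30, and none was under an unadjusted p of 0.05. They are the glycosylases Ogg1 (0.30), Ung (-0.02) and Neil1 (-0.25), the endonuclease Apex1 (-0.18), the gap-filling polymerase Polb (0.15), the scaffold Xrcc1 (-0.11) and the ligase Lig3 (-0.14).

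Pole, the catalytic subunit of the leading-strand polymerase, lay lower in KO at each time, as Parp1 did, with both KO 0 h arrays below both WT 0 h arrays. Its WT levels were -0.71, -0.65, -0.84, -0.99 and -0.66 and its KO levels -1.19, -1.70, -1.06, -1.13 and -0.95, in the order 0 h a, 0 h b, 1.5, 6 and 24 h. The groups overlapped only between KO 24 h and WT 6 h. The genotype average was -0.44 (SE 0.17, 1.35-fold lower, limma, adjusted p = 0.483), from 1 probe. Pold1, the catalytic subunit of the polymerase best known for the lagging strand, showed 0.02 (SE 0.17), and its 4 differences by time had mixed signs.

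Msh6, which recognises base mismatches, was the only mismatch repair gene on the list. The WT levels were -0.84, -0.52, -0.87, -0.79 and -0.41 and the KO levels -0.91, -1.38, -1.14, -0.87 and -0.67, in the same order. KO was lower at each time, by -0.47, -0.26, -0.08 and -0.26, while the ranges of levels overlapped. The genotype average was -0.31 (SE 0.15, limma, adjusted p = 0.546), and its 2 probes gave -0.20 and -0.41. The Msh6 window, at chr17:87974800-87975099 on the plus strand, has its E2F match beginning 16 bases after the start, within a GC-rich stretch (71.7% G and C).
Msh6: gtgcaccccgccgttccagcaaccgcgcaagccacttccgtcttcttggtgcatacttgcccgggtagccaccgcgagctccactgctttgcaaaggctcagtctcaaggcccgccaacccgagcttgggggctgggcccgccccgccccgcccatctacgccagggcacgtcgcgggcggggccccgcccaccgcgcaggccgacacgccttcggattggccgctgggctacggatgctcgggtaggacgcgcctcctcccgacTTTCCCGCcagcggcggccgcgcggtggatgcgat

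End joining had 1 gene under an unadjusted p of 0.05. Xrcc4, the partner that stabilises Lig4 at broken ends, had WT levels of -0.83, -0.47, -0.81, -1.40 and -0.31 and KO levels of -1.49, -0.85, -1.08, -1.33 and -1.68, in the same array order. The KO arrays were lower at 0, 1.5 and 24 h. The genotype average was -0.52 (SE 0.23, limma, adjusted p = 0.514), and the difference of -1.37 at 24 h was its largest. Without the array labelled KO 24 h it was -0.31 (limma, adjusted p = 0.607), again no longer under an unadjusted p of 0.05. Leaving out WT 24 h instead gave the same average. The 2 Xrcc4 probes gave -0.21 (SE 0.14) and -0.84 (SE 0.45). At 24 h the second stood at 0.76 in WT and -1.97 in KO, and the first at -1.41 in both. Prkdc, the DNA-dependent protein kinase that Ku recruits, showed -0.52 (SE 0.27), but its WT 0 h arrays lay at 0.73 and -0.58, the widest gap (1.32) between the WT 0 h arrays among the repair genes. The Ku subunits Xrcc5 and Xrcc6 and the ligase Lig4 had genotype averages of -0.06, 0.00 and -0.02.

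Homologous recombination and break-end genes had a class median of -0.06 and none under an unadjusted p of 0.05. The gene with the largest moderated t was Rad50, a subunit of the complex that holds and trims broken ends, at -0.23 (SE 0.13, limma, adjusted p = 0.593). Its WT levels were -0.04, -0.15, -0.07, -0.12 and -0.23 and its KO levels -0.14, -0.20, -0.48, -0.54 and -0.40. The KO arrays at 1.5, 6 and 24 h lay below all WT arrays, and those at 0 h lay inside the WT range. That pattern came from 1 of its 2 probes (-0.55), while the other gave 0.10. Rad54l, a motor protein of homologous recombination, was higher in KO at each time, by 0.31, 0.02, 0.14 and 0.16. Brca1 and Brca2, the breast cancer susceptibility genes of this pathway, Rad52 and Mre11a had genotype averages of -0.19, -0.06, -0.06 and -0.01.

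Among damage-signalling genes the largest moderated t in the genotype average was that of Chek1, the kinase that Atr activates at stalled forks, at 0.26 (SE 0.21, limma, adjusted p = 0.706). Its WT levels were -0.54, -0.50, -0.35, -0.91 and -0.78 and its KO levels -0.22, -1.0, -0.28, -0.02 and -0.26. The KO 0 h arrays differed by 0.77, more than those of any other repair gene, and lay on either side of the WT pair. Of its 2 probes, 1 stood at -0.09 and -2.01 on KO 0 h arrays a and b, and the other at -0.37 and -0.02. Atm, Chek2 and Trp53bp1 had genotype averages of -0.13, -0.11 and 0.13.

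In nucleotide excision repair, Ercc1, a subunit of the nuclease that cuts beside a bulky lesion, was lower in KO at each time. The WT levels were 1.89, 2.03, 1.81, 2.13 and 1.99 and the KO levels 1.73, 1.67, 1.32, 1.67 and 1.82. Only KO 24 h reached the lowest WT array, so the genotypes were almost apart. The genotype average was -0.33 (SE 0.12, 1.26-fold lower, limma, adjusted p = 0.481). All 4 probes were lower, at -0.18, -0.21, -0.73 and -0.19, and the probe at -0.73 stood at -0.21 on KO 1.5 h and between 1.07 and 1.86 on the other arrays. Xpc, which detects distorted DNA, was higher in KO at each time, with a genotype average of 0.27 (SE 0.14), from probes at 0.58 and -0.04. Xpa, which verifies the lesion, showed 0.02 from probes of opposite sign, 0.51 and -0.47.

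**Figure D2:**
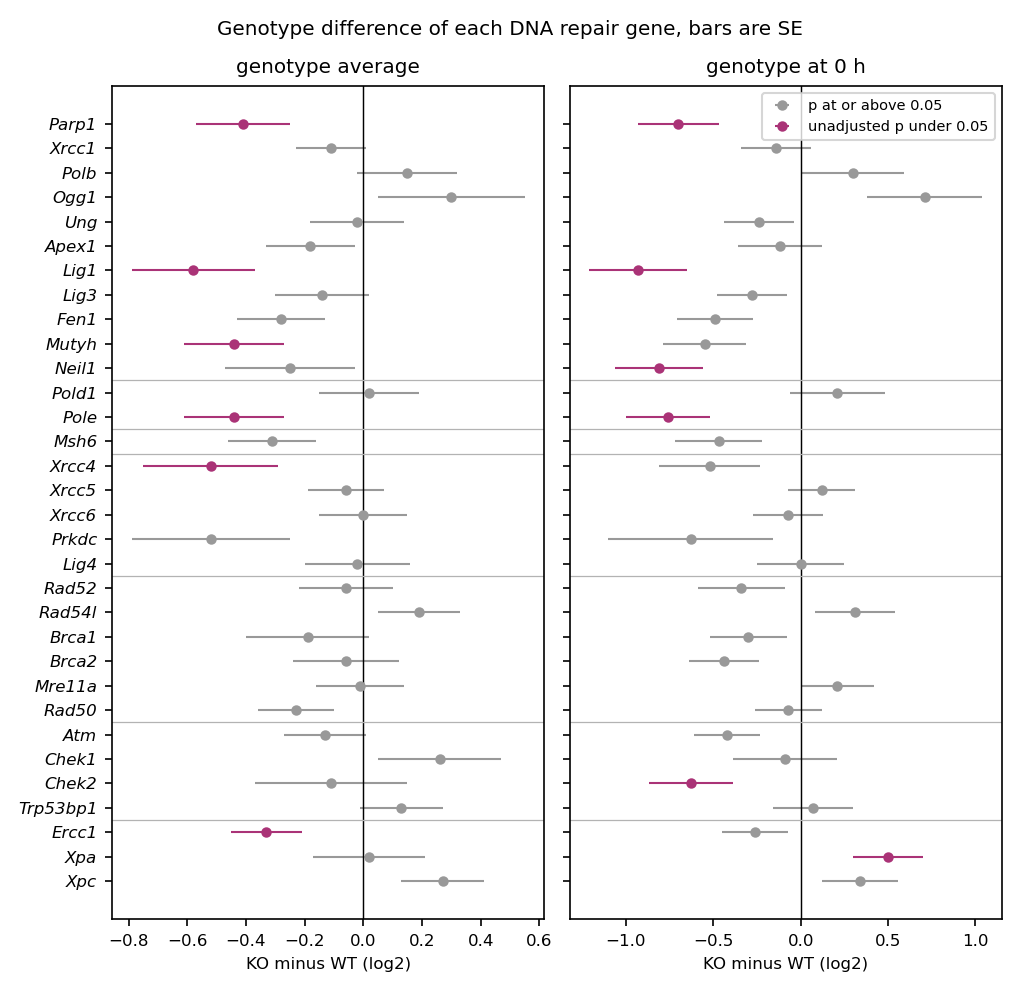
Difference KO minus WT in log2 units for each repair gene in the genotype average (left) and at 0 h (right); points are limma estimates and bars their SE, and purple points had an unadjusted p under 0.05. In the genotype average the 6 purple points all lie left of 0, and at 0 h 5 of 6 do.

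Counted without a model on the means of probes, 4 repair genes were lower in KO at all 4 times with both 0 h arrays below both WT arrays, namely Parp1, Pole, Msh6 and Ercc1, and 2 were higher in the same sense, Rad54l and Xpc. Single probes did not always keep this order. Parp1 had 1 probe higher in KO at 24 h (-0.23 against -0.38) and the other at 6 h (-0.31 against -0.36). Msh6 had 1 probe higher at 6 h (-0.19 against -0.34), and Ercc1 had 1 higher at 24 h (2 against 1.69). The 0 h arrays of the genotypes overlapped for 1 more Ercc1 probe (KO 1.8 and 1.75, WT 1.95 and 1.7). They also overlapped for another Ercc1 probe (KO 2.12 and 1.85, WT 2.1 and 2.37). For Xpc, 1 probe was lower in KO at 0 h (-0.77 and -1.15 against -0.41 and -0.54), and the other at 6 h (-0.28 against -0.27). Of all genes, 5.31% met the first count and 3.35% the second.

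A second comparison asked how the untreated samples differed. At 0 h, 22 of 32 repair genes were lower in KO, with a median of -0.25, where 53.8% of all genes were lower with a median of -0.04. None passed in limma's adjusted test, and neither did any other gene (0%). At an unadjusted p under 0.05 there were 5 lower and 1 higher, 18.8% of the repair genes against 17.2% of all genes in either direction and 9.5% as lower in KO, so the total is close to the background. The glycosylase Neil1, which removes oxidised pyrimidines, lay at -0.57 and -0.05 in WT and at -1.15 and -1.09 in KO, a difference of -0.81 (SE 0.25, n = 2 per genotype, limma, adjusted p = 0.230). Removing a local trend along the order of spots took the Neil1 difference to -0.10. Lig1 differed by -0.93 (SE 0.28), Pole by -0.76 (SE 0.24) and Parp1 by -0.70 (SE 0.23), with limma's adjusted p at 0.234, 0.239 and 0.248. For each of these 4 genes both KO arrays lay below both WT arrays. They were picked by their p on these same arrays, and the share of all genes apart in this way was not counted. Being apart at 0 h was not particular to them. The pairs of Xrcc5 (0.12) and Mre11a (0.21), both higher in KO, were apart too, while those of Prkdc (-0.63) were not. After quantile normalization the differences were -0.44 for Neil1, -0.31 for Lig1, -0.15 for Pole and -0.37 for Parp1. Without KO 0 h array b that of Lig1 was -0.58.

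Chek2, the kinase that Atm activates after breaks, lay at -0.27 and -0.16 in WT at 0 h and at -0.61 and -1.08 in KO, a difference of -0.63 (SE 0.24, limma, adjusted p = 0.278). Its 2 probes disagreed, at 0.34 and -1.62. The difference was -0.33 after quantile normalization and -0.39 without KO 0 h array b. Xpa was higher in KO, with levels of 0.29 and 0.49 against -0.07 and -0.16, a difference of 0.50 (SE 0.20, limma, adjusted p = 0.289). The 2 Xpa probes disagreed as well, at 1.12 and -0.12. The direction of the Xpa difference was turned, to -0.06, when the same local trend was removed. Results at 0 h also depended on single arrays. Without WT 0 h array a or b, 1 repair gene was under an unadjusted p of 0.05 in place of 6 (limma, smallest adjusted p = 0.831 and 0.954), and without KO 0 h array b the median was -0.10. Without KO 0 h array a, 5 repair genes passed, Lig1 (-1.27, adjusted p = 0.00894), Pole (-1.02, 0.0163), Chek2 (-0.87, 0.0258), Mutyh (-0.75, 0.0478) and Ogg1 (1.08, 0.0330), but so did 22.7% of all genes. In that fit the KO level is array b alone and the spread comes from the WT pair alone.

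The genotype difference of the repair genes was also taken at each time. At 0, 1.5, 6 and 24 h their median difference was -0.25, -0.18, 0.01 and -0.07, and 22, 24, 15 and 19 of the 32 genes were lower in KO. Over all genes 53.8%, 50.6%, 54.5% and 48.6% were lower at these times. Base excision genes followed with medians of -0.28, -0.18, -0.07 and -0.04, and homologous recombination genes with -0.18, -0.10, 0.17 and 0.05. All 4 damage-signalling genes were higher in KO at 6 h, with a median of 0.62. For Chek1 and Chek2 this came mostly from 1 probe each, at -0.16 and 0.36 in KO against -1.73 and -1.64 in WT. Their other probes were at 0.10 and 0.27 in KO against -0.11 and -0.01 in WT. Each later value compares 1 array per genotype, and the 24 h values rest on the array labelled KO 24 h.

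**Figure D3:**
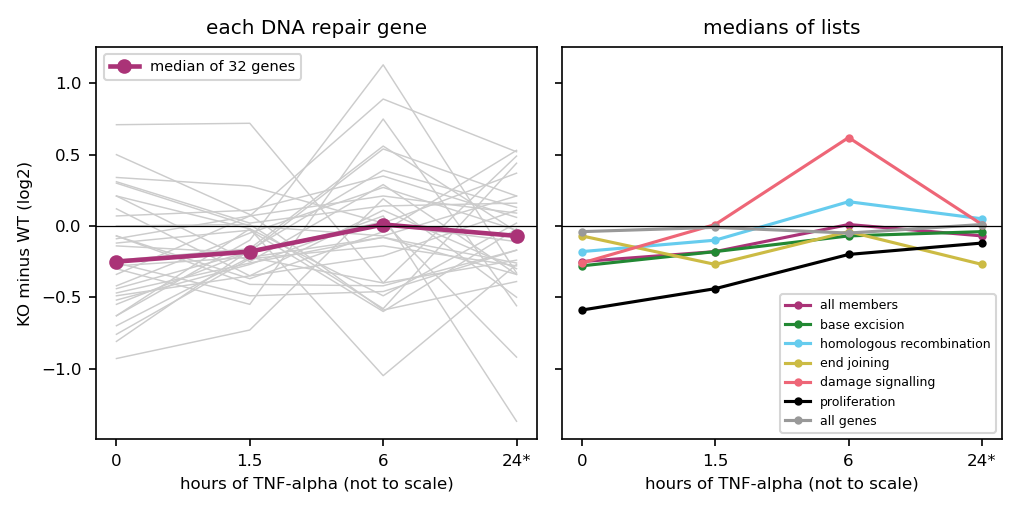
KO minus WT in log2 units at 0, 1.5, 6 and 24 h of TNF-alpha (axis not to scale), for each of the 32 repair genes with their median (left) and as medians of gene lists (right). The repair median is -0.25 at 0 h and 0.01 at 6 h, and the proliferation list, in black, stays below 0 throughout; the asterisk marks the array labelled KO 24 h.

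Other gene lists had levels that went with genotype on the same arrays. Of 32 genes typical of dividing cells, 25 were measured. Their median level was -0.51 to -0.37 on the WT arrays and -1.04 to -0.52 on the KO arrays, and 24 of the 25 had a lower genotype average in KO, with a median of -0.42, where 54.4% of all genes were lower. At an unadjusted p under 0.05 there were 11 (44%, against 9.68% of all genes), and 0 passed the adjusted test of limma. The difference in this list was -0.59, -0.44, -0.20 and -0.12 at 0, 1.5, 6 and 24 h. The cyclin Ccna2 showed -0.58 (SE 0.13), the helicase subunit Mcm5 -0.60 (SE 0.13) and the sliding clamp Pcna -0.42 (SE 0.19), with limma's adjusted p at 0.385, 0.385 and 0.521, and Mki67 is not analysed here. All 7 striated muscle genes were higher in KO in the genotype average, with a median difference of 0.62 and median levels of 0.28 to 0.93 on the KO arrays against -0.15 to -0.06 in WT. In bulk RNA fewer cells of a kind and less RNA per cell cannot be told apart. The part of either list in the differences of the repair genes was not tested.

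A further 81 repair genes, among them the remaining mismatch, Fanconi, translesion and replication-clamp genes, were counted beside the members. Of these 59 were measured, and their median genotype average was -0.03, the same as that of all genes, with 32 lower and 27 higher. At an unadjusted p under 0.05 there were 4 (6.78%, against 9.68% of all genes in either direction and 5.45% as lower), all lower in KO, and 0 passed limma's adjusted test. They were the ubiquitin ligase gene Rnf8 (-0.45), the clamp loader subunit gene Rfc4 (-0.43), the gap-filling polymerase gene Poll (-0.80) and Pold2 (-0.58), a subunit of the same polymerase as Pold1. For Poll, WT 24 h stood at 2.13 against -0.40 to 0.13 on the other WT arrays, and KO minus WT was -0.80, -0.46, 0.38 and -2.34 at 0, 1.5, 6 and 24 h.

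Responses of the repair genes to TNF-alpha were then compared with 0 h, averaged over both genotypes. None passed limma's adjusted test at any time, where 0.00696%, 0.0139% and 0.0139% of all genes did at 1.5, 6 and 24 h. At an unadjusted p under 0.05 there were 2 repair genes at 1.5 h (6.25%, against 3.73% of all genes), 0 at 6 h (against 2.88%) and 4 at 24 h (12.5%, against 7.08%). Median responses were 0.10, 0.08 and 0.20, and 0.01, 0.02 and 0.04 over all genes. Brca1 was higher at 1.5 h by 0.85 (SE 0.29, limma, adjusted p = 0.997). In WT its level was -0.83 and -0.74 at 0 h and 0.19 at 1.5 h, and in KO it was -0.89 and -1.27 at 0 h and -0.36 at 1.5 h. Both treated arrays lay above all 4 untreated arrays, and with the local trend removed the response was 0.54. Lig4 was lower at 1.5 h by -0.60 (SE 0.24, limma, adjusted p = 0.997), at -0.28 in WT and -0.27 in KO, where the untreated arrays were 0.19 and 0.48 in WT and 0.56 and 0.11 in KO.

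At 24 h Rad54l was higher by 0.61 (SE 0.19, limma, adjusted p = 0.633), with WT levels of -1.27 and -1.58 at 0 h and -0.74 at 24 h and KO levels of -0.96 and -1.25, then -0.58. Mre11a, the nuclease of the complex that holds Rad50, was higher by 0.64 (SE 0.21, limma, adjusted p = 0.637), with levels of 0.20 in WT and 0.22 in KO at 24 h, where the 4 untreated arrays ran from -0.60 to -0.18. Xrcc5, the larger Ku subunit, was lower by -0.57 (SE 0.18, limma, adjusted p = 0.637), at -0.31 in WT and -0.61 in KO, where the untreated arrays ran from 0.04 to 0.19. For these 3 genes both arrays at 24 h lay on the same side of all 4 untreated arrays. Like Brca1 at 1.5 h, they were picked by their p on these same arrays. The share of all genes apart in this way was not counted. Apex1, which cuts beside the site where a base was removed, was higher by 0.50 (SE 0.21, limma, adjusted p = 0.698). Without the array labelled KO 24 h the values were 0.63 for Rad54l, 0.62 for Mre11a, -0.42 for Xrcc5 and 0.40 for Apex1, and only Rad54l was still under an unadjusted p of 0.05. After quantile normalization Apex1 was at 0.31.

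The last comparison asked whether the response to TNF-alpha differed between the genotypes, as the KO response minus the WT response. None of the 32 genes passed limma's adjusted test at 1.5, 6 or 24 h, where 0%, 0.00696% and 0.0278% of all genes did. At an unadjusted p under 0.05 there were 0 repair genes at 1.5 h (3.72% of all genes), 5 at 6 h (15.6%, against 13.9%) and 1 at 24 h (3.12%, against 13.1%). The 6 h share is close to the background. Median repair gene responses were -0.02, -0.07 and 0.03 in WT and 0.13, 0.19 and 0.34 in KO. The 2 sets of responses share the untreated arrays of their genotype, and the interaction medians were 0.07, 0.22 and 0.15, against 0.04, -0.03 and 0.06 over all genes.

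Chek2 had the largest interaction at 6 h, 1.77 (SE 0.41, limma, adjusted p = 0.243). Its WT level went from -0.27 and -0.16 at 0 h to -0.81 at 6 h, and its KO level from -0.61 and -1.08 to 0.32, the highest of all 10 arrays. It was also the only repair gene under an adjusted p of 0.05 whichever KO 0 h array was left out, at 2.00 without a (adjusted p = 0.0099) and 1.53 without b (adjusted p = 0.0418), when 18% and 5.35% of all genes passed. Without WT 0 h array a or b it was 1.83 and 1.71, and did not pass (limma, adjusted p = 0.806 and 0.916). Leaving out WT 24 h together with KO 0 h array b gave that same share of all genes, 5.35%. The difference came from 1 of its 2 probes. The second probe gave an interaction of 3.61 (SE 0.69), with -0.57 and -0.13 in WT at 0 h, -1.64 in WT at 6 h, -1.46 and -2.47 in KO at 0 h and 0.36 in KO at 6 h. The first probe gave -0.07 (SE 0.38), and all its 10 levels lay between -0.21 and 0.27. The Chek2 window, at chr5:110839733-110840032 on the plus strand, has its E2F match beginning at base -152 from the start.
Chek2: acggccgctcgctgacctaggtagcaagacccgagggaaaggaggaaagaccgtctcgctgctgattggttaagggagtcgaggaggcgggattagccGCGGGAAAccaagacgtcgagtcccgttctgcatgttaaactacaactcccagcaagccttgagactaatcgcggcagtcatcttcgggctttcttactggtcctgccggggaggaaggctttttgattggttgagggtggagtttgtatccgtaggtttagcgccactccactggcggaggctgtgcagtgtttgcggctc

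Brca1 and Brca2 had interactions of 1.05 (SE 0.38) and 0.98 (SE 0.34) at 6 h, with limma's adjusted p at 0.333 and 0.320. After quantile normalization they were 0.42 and 0.27. For Brca2 the WT levels were -0.76, -0.87, -0.81, -1.06 and -0.86 and the KO levels -1.17, -1.34, -0.99, -0.51 and -0.65, from 0 h a to 24 h. The KO arrays lay below all WT arrays at 0 h and above all of them at 6 and 24 h. Brca1 stood at -0.91 in WT and -0.16 in KO at 6 h. The Brca2 window, at chr5:150522371-150522670 on the plus strand, has its E2F match beginning at base -168 from the start, and the Brca1 window had none.
Brca2: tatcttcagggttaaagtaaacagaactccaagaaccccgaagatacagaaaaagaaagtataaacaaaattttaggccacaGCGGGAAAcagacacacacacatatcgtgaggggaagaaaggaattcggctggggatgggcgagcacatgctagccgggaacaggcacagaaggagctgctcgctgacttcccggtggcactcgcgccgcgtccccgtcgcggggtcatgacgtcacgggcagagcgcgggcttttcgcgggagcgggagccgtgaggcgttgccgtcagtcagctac

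Neil1 had an interaction of 1.2 at 6 h (SE 0.43, limma, adjusted p = 0.328), with WT levels going from -0.57 and -0.05 at 0 h to -1.01 and KO levels from -1.15 and -1.09 to -0.62. It was 0.69 after quantile normalization and 0.16 with the local trend removed. Xpa had interactions of the opposite sign, -1.09 at 6 h (SE 0.34, limma, adjusted p = 0.298) and -0.89 at 24 h (SE 0.34, limma, adjusted p = 0.369). Its WT levels were 0.21 and 0.13 at 6 and 24 h and its KO levels -0.38 and -0.26, after 0.29 and 0.49 in KO at 0 h. With the local trend removed the interactions were -0.37 and -0.33, and the 24 h value rests on the array labelled KO 24 h, without which it cannot be had. Without KO 0 h array a, the 6 h interactions of Lig1, Chek1, Brca1 and Xpa were 1.47, 1.37, 1.24 and -1.19. In that fit the KO level at 0 h is array b alone, and the spread comes from the WT pair alone. Over all arrays the 2 Chek1 probes gave 6 h interactions of -0.11 and 2.08, and the 3 Lig1 probes 1.06, 0.13 and 2.18.

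**Figure D4:**
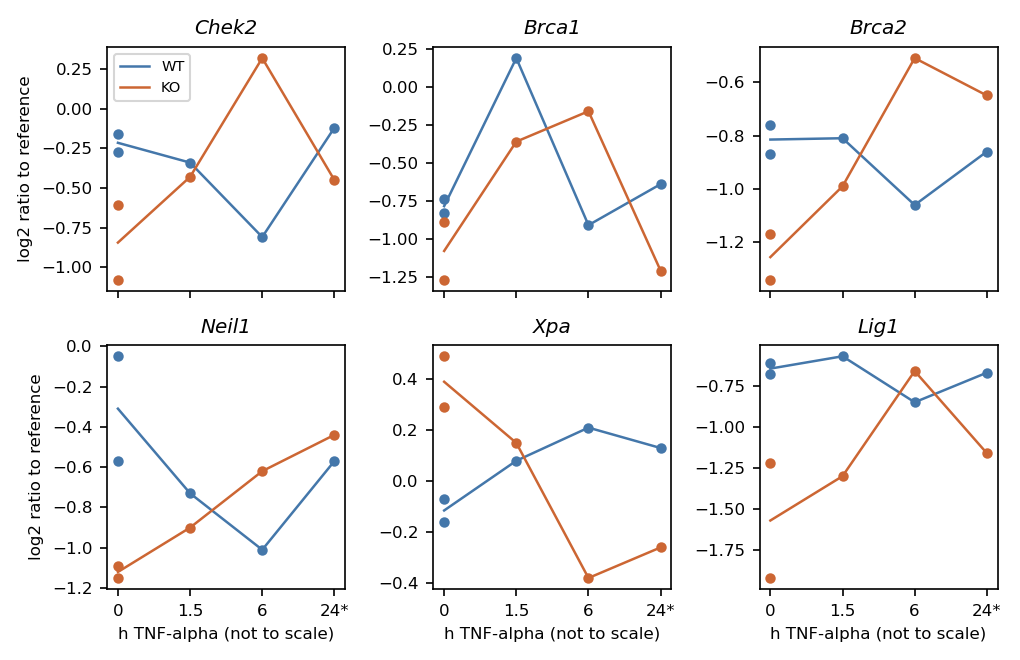
Levels (log2 ratio to reference) of 6 repair genes at 0, 1.5, 6 and 24 h of TNF-alpha (axis not to scale) in WT (blue) and KO (orange); points are single arrays and lines pass through the mean at 0 h. Chek2, Brca1, Brca2, Neil1 and Lig1 lie lower in KO than in WT at 0 h and higher at 6 h, and Xpa does the opposite. For Chek2, Lig1 and Xpa this change of order was seen in 1 probe each. The asterisk marks the array labelled KO 24 h.

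Several genes were measured by more than 1 probe, and this limits how far a gene value can be read. Of 18 such genes, 9 had the same sign of genotype average in all their probes. The probes of Parp1, Msh6, Mutyh, Ercc1 and Xrcc4 were all lower in KO, while those of Lig1, Lig3, Ung, Rad50, Mre11a, Chek2, Xrcc6, Xpa and Xpc were on both sides of 0. Which probes measure the annotated transcript was not tested.

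**Figure D5:**
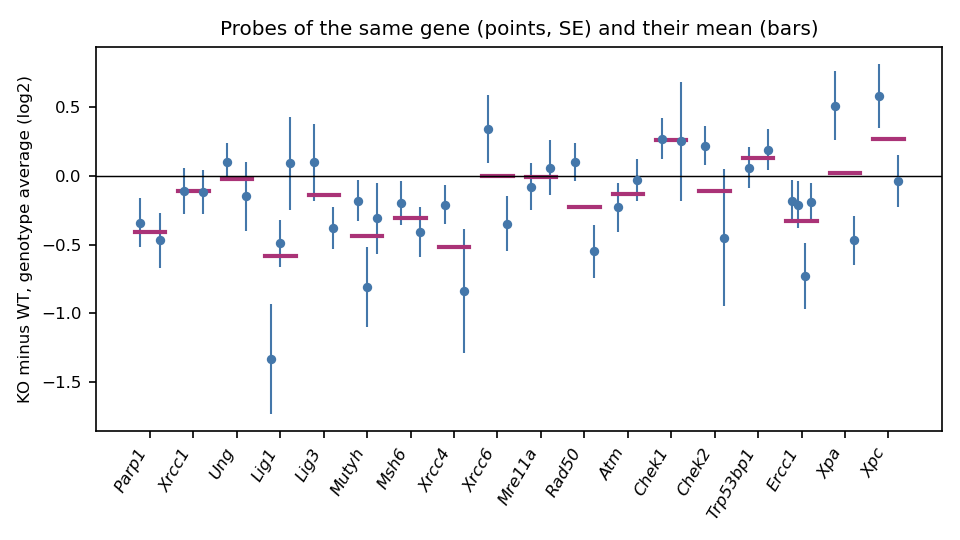
Genotype average (KO minus WT, log2) of each probe (points, with SE) and of the gene (bars) for the 18 repair genes with more than 1 probe. Probes of Parp1, Msh6 and Ercc1 lie on the same side of 0, and those of Xpa (0.51 and -0.47) on opposite sides.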

How the data were processed

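The deposited values are log2 ratios, 1 per spot, from the series' value table. Per the labels, samples were in Cy5 and the reference in Cy3; the base, the direction and the authors' normalization are not given in the sources used here. The reading as log2 of Cy5 over Cy3 rests on the dyes, the spread of the values and the response of Ccl2. Complete values were present for 36113 of 38784 spots. The platform annotation gave exactly 1 symbol for 22204 probes, and the other 16580 spots had no single symbol there. Among the probes of the repair genes, 1 Prkdc probe, with missing values, was dropped. Probes were averaged per gene and arrays centred on their median over genes. Tests were two-sided, with limma 3.58.1 (R 4.3.3), adjusted by Benjamini-Hochberg over 14365 genes. Genotype and time as additive terms gave the genotype average and TNF responses, with 5 residual degrees of freedom (prior 3.64), and differences in response between genotypes enter the error. Separate means for the 8 groups gave genotype at 0 h and the interactions, with 2 residual degrees of freedom (prior 3.33) from the 0 h pairs, a spread assumed also for the single treated arrays. The scripts were tested on simulated data. Array values are given for the gene with the largest moderated t of each class and, chosen after their values were seen, for genes at an unadjusted p under 0.05 and a few others. Alternatives are given in the closing section. The genes, lists and tests were chosen with earlier results of these data known. RefSeq promoter windows were matched by symbol for 28 of 33 genes.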

Additional observations from a re-analysis of the deposited data

How the results depend on the processing

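Over 22 alternatives, 162 of 166 counts of repair genes passing the adjusted test were 0, as in the results given first. Many of these counts repeat each other. With separate group means, leaving out a treated array cannot change the values at 0 h or the interaction at another time. Leaving out WT 24 h with KO 0 h array b there repeats leaving out that KO array. In the additive model, leaving out WT or KO at a later time gives the same genotype average. The tally is thus not a count of separate checks. At 0 h the count was 0 to 5 when 1 array was left out, with 5 only without KO 0 h array a. For the interaction at 6 h it was 0 to 5, with 5 without KO 0 h array a and 1 without array b, and 1 when WT 24 h and KO 0 h array b were left out together. The median genotype average of the repair genes, -0.11, was -0.18 without centring, -0.05 after quantile normalization, -0.18 with each probe alone and -0.22 over the 14 genes with an SD above the median. The median at 0 h, -0.25, was -0.41 without centring, -0.08 after quantile normalization, -0.35 with each probe alone, -0.54 over the more variable genes, -0.11 in the additive model, -0.15 with the local trend in spot order removed, -0.10 without WT 24 h and KO 0 h array b, and -0.28 to -0.10 when 1 array was left out. Without centring the median of all genes at 0 h was -0.20, against -0.04. Xpa at 0 h was turned to -0.06 by removal of the local trend. Without WT 0 h array a or b, 1 repair gene was under an unadjusted p of 0.05 in the genotype average, as were 786 and 827 of all 14365 genes. The cause of these shifts was not tested. With the 0 h letters as a replicate block there were 0 passing genes in each comparison. The Lig1 genotype average stayed at -0.58 there (limma, adjusted p = 0.570) and still under an unadjusted p of 0.05. Over genes, the deviations of WT and KO 0 h arrays a from their group means had a correlation of r = -0.005. With a single pair per genotype, this cannot decide whether the letters mark something the arrays share. Leaving out a treated array, or using the additive model, gives no interaction at that time.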
